A study of Homo sapiens with 17 samples.

Results

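The unfolded protein response and the ATF4 stress programme were followed through 40 genes in SF8628 cells treated with the BET inhibitor AZD5153. The genes were chosen by symbol as sensors of the endoplasmic reticulum (ER), ER chaperones, genes of ER-associated degradation and targets of the transcription factor ATF4, and the symbols were mapped to the Ensembl identifiers of the table. All 40 were found among the 60664 genes of the table, and all 40 reached the mean required for testing (10 normalized counts across the 12 RNA-Seq libraries), as did 15599 genes in all. They comprise 5 sensors and transcription factors, 17 genes of the ATF4 arm and 18 genes of the ATF6/XBP1 arm. SF8628 is an established H3.3K27M diffuse midline glioma (DMG) cell line, here a single line grown as a monolayer in medium with serum and non-essential amino acids. AZD5153 is a small molecule that binds the bromodomains of BET proteins and displaces them from acetylated histones. The 4 groups were DMSO vehicle for 24 hours, 1 μM AZD5153 for 24 hours, DMSO vehicle for 48 hours and 1 μM AZD5153 for 48 hours, with 3 libraries in each and no other agent or genetic change between them.

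Proteins that enter the secretory pathway fold in the ER with the help of chaperones and disulfide isomerases. When unfolded proteins accumulate, the membrane sensors IRE1 (encoded by ERN1), PERK (EIF2AK3) and ATF6 are activated. IRE1 splices the XBP1 messenger RNA, and spliced XBP1 and cleaved ATF6 switch on chaperones and the degradation machinery. PERK phosphorylates eIF2α, which slows translation in general while it favours translation of the ATF4 messenger RNA. Amino acid shortage, haem deficiency and viral RNA reach the same step through other kinases, so that ATF4 targets also report on metabolism. Much of this control acts on splicing, cleavage and translation, which gene-level counts do not record. The spliced and unspliced forms of XBP1 were not separated here.

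The libraries held 15759148 to 27335220 reads on genes. Replicate 1 of DMSO at 24 hours stood apart from the other libraries of its group, with chi-square values of 15.2 and 22.9 per degree of freedom against them, while the other pairs of replicates were between 2.09 and 4.82. Results at 24 hours are therefore also given without that library where it decided them. Of 10 markers of glioma cells and neural progenitors, 6 had a mean of at least 10 normalized counts, among them VIM, CD44, NES and SOX2, while OLIG2 was at 0 in every library and PDGFRA and SOX10 did not exceed 6.24. The 10 markers summed to 28347 to 37658 in DMSO and 26329 to 28298 with AZD5153 at 24 hours. At 48 hours these sums were 22187 to 22426 and 22057 to 23643. The defining endothelial marker CDH5 and the immune marker AIF1 were at 0 in every library. The 3 endothelial markers summed to 324 to 379 normalized counts in DMSO and 55.1 to 67.0 with AZD5153 at 24 hours, and to 596 to 636 and 50.0 to 62.9 at 48 hours, mostly through PECAM1. The 4 epithelial markers summed to 1028 to 1121, 1195 to 1304, 1263 to 1395 and 1602 to 1835 in the same order, mostly KRT8 and KRT18, and the 4 immune markers to at most 23.1. The part of these lists in the results below was not tested. Nothing in the labels says whether the 3 libraries of a group came from separate cultures, so that the p-values measure the spread between these libraries, which may be technical.

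At 24 hours 19 of the 40 genes rose and 16 fell relative to DMSO (limma, Benjamini-Hochberg adjusted p under 0.05 over all genes tested). Over all genes tested 33.9% rose and 34.6% fell, so that the members' shares of 47.5% and 40% stood against a background in which most genes changed. At 48 hours 15 members rose and 15 fell, against 33.1% and 33.9% of all genes tested. Without replicate 1 of DMSO at 24 hours the counts at 24 hours were 19 and 15. Among the 40 genes, 12 rose at both times and 11 fell at both times, against 26% and 27.1% of all genes. Another 5 changed in opposite directions at 24 and 48 hours, against 1.62% of all genes. In bulk RNA, fewer cells that express a gene and less of its RNA per cell cannot be told apart.

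**Figure D1:**
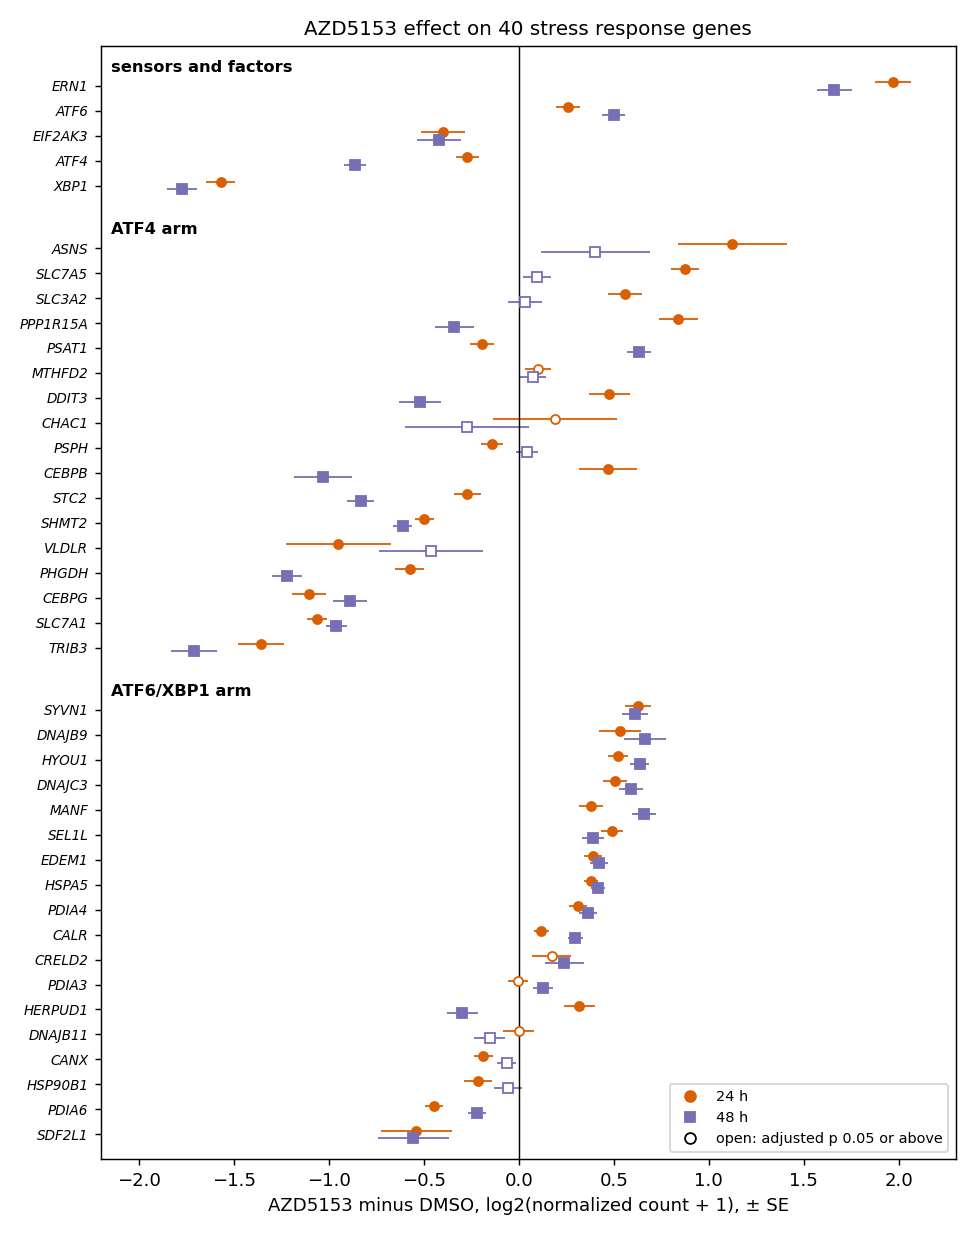
AZD5153 effect on each of the 40 genes at 24 hours (circles) and 48 hours (squares), as the difference of log2(normalized count + 1) from DMSO with its standard error on the horizontal axis, genes in rows. Filled symbols passed an adjusted p of 0.05. ERN1 lies farthest to the right and XBP1 and TRIB3 farthest to the left, and 9 of the 18 ATF6/XBP1 arm genes lie between 0.3 and 0.7 at both times.

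The arms are counted separately here. In the ATF6/XBP1 arm 11 of 18 genes rose and 4 fell at 24 hours, and 12 rose and 3 fell at 48 hours, with a median log2 difference of 0.31 and 0.33. These are shares of 61.1% and 22.2% and then 66.7% and 16.7%, against 33.9% and 34.6% and then 33.1% and 33.9% of all genes. With equal totals 10 rose and 5 fell at 24 hours, and 10 rose and 6 fell at 48 hours. Without replicate 1 of AZD5153 at 24 hours 2 fell at 24 hours. In the ATF4 arm 6 of 17 genes rose and 9 fell at 24 hours, whereas 1 rose and 9 fell at 48 hours, with a median log2 difference of -0.14 and -0.46. The shares are 35.3% and 52.9% at 24 hours and 5.88% and 52.9% at 48 hours, against the same background. The median over all genes tested was 0.00037 and 0.0011. Scaling the libraries to equal totals moved that median to -0.12 and -0.17, so that the signs of small differences depend on the scaling.

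The 5 sensors and factors all changed at both times, ERN1 and ATF6 upward and EIF2AK3, XBP1 and ATF4 downward. Of all genes 26% rose at both times, 27.1% fell at both and 1.62% changed in opposite directions. Their directions were the same after scaling to equal totals, to stable genes and by quantiles, but ATF6 at 24 hours was not past the threshold with equal totals (0.137, adjusted p = 0.069, and 0.328 at 48 hours), nor EIF2AK3 at 24 hours with quantiles (-0.249, adjusted p = 0.065, and -0.271 at 48 hours). In what follows the values of the 3 libraries of a group are given in the order of their replicate numbers, which carry no rank, as normalized counts, which compare libraries and not genes.

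ERN1 encodes IRE1, the kinase and endoribonuclease that splices XBP1 (ENSG00000178607, minus strand, chr17:64039080-64130819 on GRCh38). Its values were 213, 204 and 242 in DMSO and 879.6, 803 and 905 with AZD5153 at 24 hours, and 215, 258 and 254 against 762, 757 and 781 at 48 hours. The treated libraries were all above the vehicle libraries at both times, with no overlap. ERN1 rose 3.92-fold at 24 hours (log2 difference 1.97 ± 0.09 SE, adjusted p = 3.7e-11) and 3.17-fold at 48 hours (1.66 ± 0.09, adjusted p = 2.8e-10), the largest increase among the members. The effects at the 2 times did not differ past the threshold (difference -0.31 ± 0.13, adjusted p = 0.11).

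XBP1, the transcription factor whose messenger RNA is the substrate of IRE1, went the other way (ENSG00000100219, minus strand, chr22:28794555-28800597). Vehicle libraries read 734, 761 and 736 at 24 hours and 784, 829.8 and 818 at 48 hours, and treated libraries 264, 230.4 and 256 and then 239, 240.1 and 230.2. Every treated library was thus below every vehicle library, and the spread within each group was small beside the gap. XBP1 fell to 0.337 of its DMSO level at 24 hours (-1.57 ± 0.08, adjusted p = 6.2e-11) and to 0.293 at 48 hours (-1.77 ± 0.08, adjusted p = 1.5e-11). At 24 hours XBP1 was the most strongly reduced of the 40 genes, and at 48 hours XBP1 and TRIB3 were the lowest, apart by less than their standard errors.

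ATF6, the sensor that is itself a membrane-bound transcription factor, was higher in treated cells (ENSG00000118217, plus strand, chr1:161766298-161977574). The vehicle libraries had 2378, 2058 and 2026 at 24 hours and 1866, 1722 and 1817 at 48 hours, against 2621, 2464 and 2638 and then 2599, 2551 and 2487 with AZD5153. The groups did not overlap at either time, and the vehicle level at 48 hours lay below that at 24 hours. ATF6 rose by 0.26 ± 0.06 (adjusted p = 0.0017) and by 0.50 ± 0.06 (adjusted p = 3.3e-06). DMSO itself fell by 0.25 between the times (adjusted p = 0.0051).

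EIF2AK3 encodes PERK, the eIF2α kinase of the ER (ENSG00000172071, minus strand, chr2:88556741-88691518). Its libraries read 445, 441 and 399 in DMSO and 319, 372 and 288 with AZD5153 at 24 hours, then 435, 487 and 471 against 295, 392 and 359 at 48 hours. Treated libraries were lower at both times without overlap, though they scattered more than the vehicle libraries. EIF2AK3 fell by 0.40 (SE 0.12, adjusted p = 0.0064) and by 0.42 (SE 0.12, adjusted p = 0.0045). The antisense gene EIF2AK3-DT lies inside it, with a mean of 51.6 normalized counts against 392.

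ATF4, the factor translated when eIF2α is phosphorylated, was lower in treated cells, by more at 48 hours (ENSG00000128272, plus strand, chr22:39519695-39522683). In DMSO it read 2709.6, 2557 and 2794 at 24 hours and 3045, 2871 and 3303 at 48 hours, and with AZD5153 2254, 2124 and 2304 at 24 hours and 1687, 1724 and 1649 at 48 hours. Treated and vehicle libraries were separate at both times and farther apart at 48 hours. ATF4 fell by 0.27 (SE 0.06, adjusted p = 0.0008) and by 0.86 (SE 0.06, adjusted p = 2.8e-09). The difference between the effects was itself past the threshold (-0.59 ± 0.08, adjusted p = 0.00013).

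**Figure D2:**
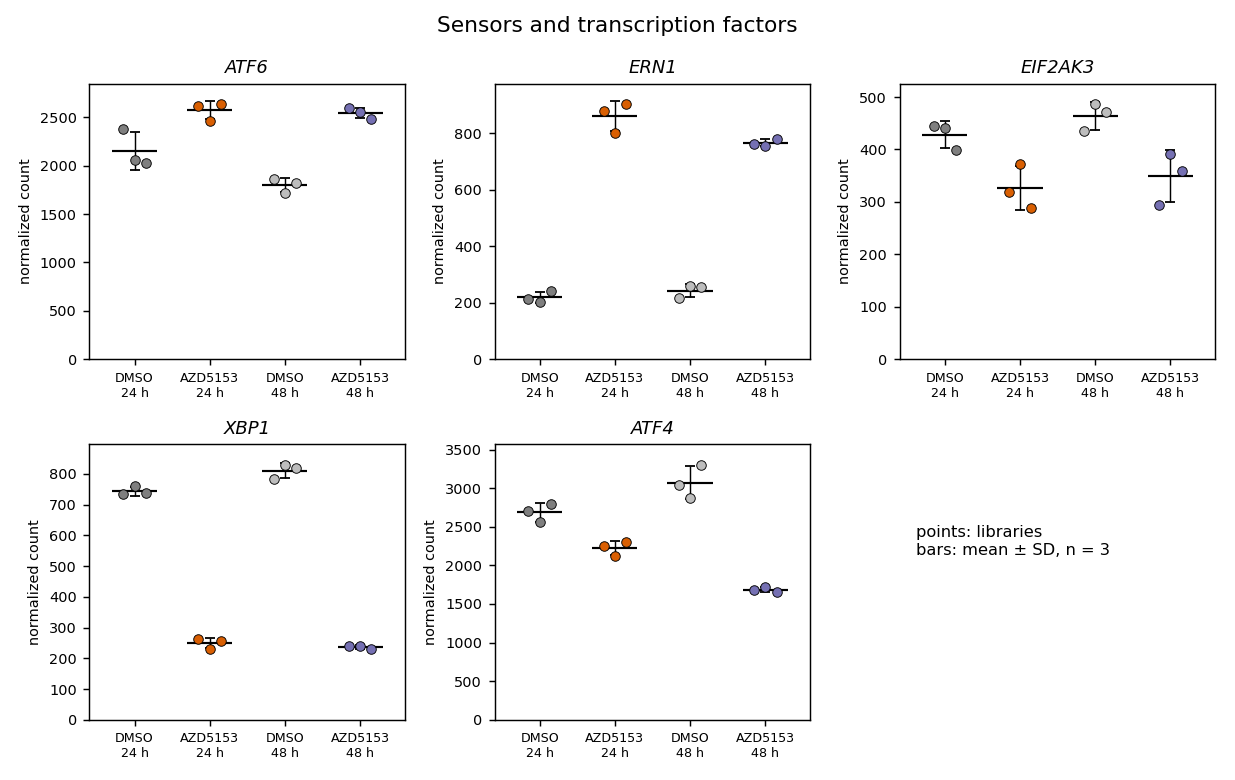
Normalized counts of the 5 sensors and factors in the 12 libraries, by group. Points are libraries and bars give the mean and SD of 3 libraries. ERN1 and ATF6 are higher and EIF2AK3, XBP1 and ATF4 lower in every AZD5153 library than in the DMSO libraries of the same time.

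The ATF6/XBP1 arm holds the folding and disposal machinery of the ER. Among the 9 chaperones and cofactors, 5 rose and 2 fell at 24 hours, and 6 rose and 1 fell at 48 hours. These are 55.6% and 22.2% and then 66.7% and 11.1%, where 33.9% and 34.6% and then 33.1% and 33.9% of all genes rose and fell. HSPA5 encodes BiP, the Hsp70 of the ER that holds the 3 sensors inactive (ENSG00000044574, minus strand, chr9:125234853-125241382). It read 17256, 17368 and 17160.0 in DMSO and 22103, 22387 and 22901 with AZD5153 at 24 hours, then 14218, 13819 and 14432 against 19080.1, 18546 and 19155 at 48 hours. The groups were far apart for their spread, and the vehicle libraries at 48 hours had the lowest values. HSPA5 rose 1.3-fold at 24 hours (0.38 ± 0.04, adjusted p = 1.7e-07) and 1.34-fold at 48 hours (0.42 ± 0.04, adjusted p = 5.1e-08). The size of the rise depended on the scaling, with 0.108 and 0.134 under quantile normalization (adjusted p = 0.015 and 0.0037) and 0.247 at 48 hours with equal totals (adjusted p = 1.6e-05).

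HYOU1, a large Hsp70 that acts as nucleotide exchange factor for BiP, rose by more (ENSG00000149428, minus strand, chr11:119044188-119057227). Its values were 3933, 3505 and 3733 against 5407, 5373 and 5247 at 24 hours and 2809, 2602 and 2788 against 4300.2, 4227 and 4228 at 48 hours, vehicle first. No treated library overlapped a vehicle library. The log2 difference was 0.52 ± 0.05 (adjusted p = 1.6e-07) and then 0.64 ± 0.05 (adjusted p = 1.4e-08).

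DNAJB9 (ERdj4) is a J-domain cochaperone of BiP (ENSG00000128590, plus strand, chr7:108569867-108574850). It read 263, 267 and 226 in DMSO and 347, 378 and 368 with AZD5153 at 24 hours, and 269, 225 and 249 against 410.3, 432 and 341 at 48 hours. All treated libraries exceeded all vehicle libraries. DNAJB9 rose by 0.53 ± 0.11 (adjusted p = 0.00053) and 0.67 ± 0.11 (adjusted p = 6.8e-05). DNAJC3, a J-domain protein also known as an inhibitor of eIF2α kinases, rose too (ENSG00000102580, plus strand, chr13:95677139-95794988). Vehicle libraries had 2117, 1755 and 1755 and then 1476, 1500.0 and 1515, and treated libraries 2643, 2631 and 2687 and then 2238, 2277 and 2248. DNAJC3 rose by 0.51 ± 0.06 (adjusted p = 3.8e-06) and 0.59 ± 0.06 (adjusted p = 6.7e-07), again without overlap.

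MANF, a secreted ER protein that binds BiP, rose by 0.38 ± 0.06 (adjusted p = 7e-05) and then by 0.66 ± 0.06 (adjusted p = 1.6e-07). CRELD2, an ER protein with disulfide isomerase activity, had a difference of 0.17 ± 0.10 at 24 hours (adjusted p = 0.14) and rose by 0.24 ± 0.10 later (adjusted p = 0.048). That call was lost when any of 9 single libraries was left out, namely replicate 2 of DMSO at 24 hours, each replicate of DMSO at 48 hours, each of AZD5153 at 24 hours and replicates 2 and 3 of AZD5153 at 48 hours, with values from 0.217 to 0.262. Scaling to equal totals took it to 0.0693 (adjusted p = 0.56), and quantile normalization gave 0.304 and 0.42 at the 2 times (adjusted p = 0.012 and 0.0012). The antisense neighbour ALG12 overlaps CRELD2, with a mean of 142 normalized counts against 392. DNAJB11, another J-domain cochaperone, passed at neither time (0.00014 ± 0.08 and -0.15 ± 0.08, adjusted p = 1 and 0.1), and TBCCD1 overlaps it on the other strand with a mean of 371 normalized counts against 529. After scaling to equal totals DNAJB11 fell by 0.325 at 48 hours (adjusted p = 0.002).

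SDF2L1, a partner of the DNAJB11 complex, was the only one of the 9 chaperones and cofactors that fell at both times (ENSG00000128228, plus strand, chr22:21642302-21644299). It read 196, 269.8 and 343 in DMSO and 168, 224 and 157 with AZD5153 at 24 hours, and 224, 207 and 182 against 147, 149.9 and 121 at 48 hours. The groups overlapped at 24 hours and did not at 48 hours. SDF2L1 fell by 0.54 (SE 0.19, adjusted p = 0.018) and 0.56 (SE 0.19, adjusted p = 0.015). The first value was -0.35 without replicate 3 of DMSO at 24 hours (adjusted p = 0.1), -0.49 without replicate 1 of AZD5153 (adjusted p = 0.061) and -0.44 without replicate 3 of AZD5153 (adjusted p = 0.078). The second was -0.49 without replicate 1 of DMSO at 48 hours (adjusted p = 0.061) and -0.46 without replicate 3 of AZD5153 at 48 hours (adjusted p = 0.07). Quantile normalization took both below the threshold (-0.348 and -0.242, adjusted p = 0.09 and 0.23).

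HSP90B1 encodes GRP94, the Hsp90 of the ER, and differed from BiP in direction (ENSG00000166598, plus strand, chr12:103930107-103953931). Its libraries had 22970.0, 19199 and 18058 in DMSO and 16608, 16406 and 18726 with AZD5153 at 24 hours, and 14539, 14169 and 15719 against 14204, 14208 and 14279 at 48 hours. The groups overlapped at both times, and the highest value was in the library that stood apart. HSP90B1 fell by 0.21 at 24 hours (SE 0.07, adjusted p = 0.018), or by 0.11 without that library (adjusted p = 0.044), and was at -0.06 ± 0.07 at 48 hours (adjusted p = 0.52). The call at 24 hours was also lost without replicate 1 or replicate 2 of AZD5153 (-0.19 and -0.18, adjusted p = 0.069 and 0.077). Scaling to equal totals and quantile normalization gave larger decreases at 24 hours (-0.337 and -0.484, adjusted p = 0.00091 and 2.8e-05). At 48 hours HSP90B1 was past the threshold after scaling to equal totals (-0.228, adjusted p = 0.014) or quantile normalization (-0.37, adjusted p = 0.00037).

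The calnexin and disulfide isomerase group has 5 members, of which 2 rose and 2 fell at 24 hours and 3 rose and 1 fell at 48 hours. The shares of 40% and 40% at 24 hours lay near those of all genes (33.9% and 34.6%), and at 48 hours they were 60% and 20% (33.1% and 33.9% of all genes). PDIA4, a disulfide isomerase, rose by 0.31 ± 0.05 and 0.36 ± 0.05 (adjusted p = 3.1e-05 and 5.5e-06), or by 0.187 and 0.192 with equal totals (adjusted p = 0.0023 and 0.0018). CALR, the soluble lectin chaperone calreticulin, rose by 0.12 ± 0.04 (adjusted p = 0.016) and 0.30 ± 0.04 (adjusted p = 6.5e-06), but its direction turned at 24 hours when libraries were scaled to equal totals, and at both times under quantile normalization. Its call at 24 hours was lost without replicate 2 of DMSO, replicate 1 of AZD5153 or replicate 2 of AZD5153. The values were then 0.111, 0.104 and 0.111 (adjusted p = 0.051, 0.064 and 0.05). Scaling to stable genes also ended that call (0.0713, adjusted p = 0.26). PDIA3, the isomerase that works with calreticulin and calnexin, was at -0.0042 ± 0.05 at first (adjusted p = 0.95) and rose by 0.13 ± 0.05 at 48 hours (adjusted p = 0.042), a rise whose direction also turned under those scalings. It was lost without any of 8 single libraries, namely replicate 2 of DMSO at 24 hours, replicates 1 and 2 of DMSO at 48 hours, replicates 1 and 2 of AZD5153 at 24 hours and each replicate of AZD5153 at 48 hours, with values from 0.094 to 0.13. With equal totals PDIA3 fell by 0.127 at 24 hours (adjusted p = 0.047).

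PDIA6, a disulfide isomerase that acts on IRE1 and BiP clients, fell at both times (ENSG00000143870, minus strand, chr2:10783391-10837977). It read 4413, 4389 and 4332 in DMSO and 3076, 3239.6 and 3311 with AZD5153 at 24 hours, then 3341, 3126 and 3361 against 2777, 2802 and 2844 at 48 hours. The groups were separate at both times. PDIA6 fell by 0.45 (SE 0.05, adjusted p = 4.3e-07) and 0.22 (SE 0.05, adjusted p = 0.00061), the second value being -0.393 with equal totals and -0.359 with quantile normalization. CANX encodes calnexin, the membrane-bound lectin chaperone (ENSG00000127022, plus strand, chr5:179678628-179731641). Its values were 17178, 16511 and 15332 against 14004, 13749.7 and 15279 at 24 hours and 12790.5, 12262 and 12699 against 11961, 12024 and 12115 at 48 hours. Treated libraries were lower at both times by a narrow margin. CANX fell by 0.19 at 24 hours (SE 0.05, adjusted p = 0.0033), and its value at 48 hours was -0.06 ± 0.05 (adjusted p = 0.27), which passed the threshold after scaling to equal totals (-0.236, adjusted p = 0.00063) or quantile normalization (-0.363, adjusted p = 5.8e-05). The same scalings gave -0.311 and -0.422 at 24 hours.

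All 4 genes of ER-associated degradation rose at 24 hours, and 3 of them rose and 1 fell at 48 hours, where 33.9% and 33.1% of all genes rose. SYVN1 encodes HRD1, the ubiquitin ligase of the retrotranslocation channel (ENSG00000162298, minus strand, chr11:65121780-65134532). It read 1327, 1478 and 1498 in DMSO and 2204, 2314 and 2128 with AZD5153 at 24 hours, and 1538, 1613 and 1381 against 2222, 2314 and 2383 at 48 hours. The groups were well separated at both times. SYVN1 rose by 0.63 ± 0.07 (adjusted p = 5.6e-07) and 0.61 ± 0.07 (adjusted p = 7.3e-07). FAU on the same strand and MRPL49 on the other overlap the gene, with means of 1604 and 1137 normalized counts against 1867.

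SEL1L, the adaptor of HRD1, rose by 0.49 ± 0.06 and 0.39 ± 0.06 (adjusted p = 1.4e-06 and 1.6e-05). EDEM1, which directs misfolded glycoproteins to degradation, rose by 0.39 ± 0.05 and 0.42 ± 0.05 (adjusted p = 3e-06 and 1.2e-06). With equal totals the values at 48 hours were smaller, 0.22 for SEL1L and 0.252 for EDEM1 (adjusted p = 0.0035 and 0.00032). The remaining gene of this group, HERPUD1, rose and then fell and is described with the genes that reversed.

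Promoter windows of 250 bases before and 50 after the annotated start were available in RefSeq (GRCh38.p14) for 37 of the 40 genes, and not for PDIA3, PSPH and SHMT2. The windows were searched on both strands for the ER stress element (ERSE), spelled CCAAT, any 9 bases, then CCACG, for ERSE-II, spelled ATTGGNCCACG, and for the CCAAT enhancer binding protein and ATF response element (CARE), spelled TGATGNAA. ERSE and ERSE-II share CCACG, and ATTGG is CCAAT read on the other strand. ERSE was found in 7 of the 37 windows (18.9%), namely those of HSPA5, HSP90B1, CALR, CANX, PDIA6, CRELD2 and XBP1, against 0.0916% of all 27305 genes with a window. ERSE-II was found in those of HYOU1, HERPUD1 and SDF2L1, against 0.0696% of all genes. The matches are shown because genes that share this spelling did not share a direction. Capitals mark the fixed letters of the motif, and 3 bases are given on either side, in the orientation of the motif.
HSPA5, chr9:125241388-125241412, minus strand: tcaCCAATcggcggcctCCACGacg
HSP90B1, chr12:103930213-103930237, plus strand: tgaCCAATcggaaggagCCACGctt
HSP90B1, chr12:103930318-103930342, minus strand: ccaCCAATcgcgccgcaCCACGcac
CALR, chr19:12938381-12938405, minus strand: cgaCCAATgatggtcgaCCACGcgt
CANX, chr5:179698775-179698799, plus strand: cggCCAATcttcacactCCACGaag
PDIA6, chr2:10812850-10812874, minus strand: ggaCCAATgagccgcagCCACGgct
CRELD2, chr22:49918551-49918575, minus strand: ggcCCAATccgagttcgCCACGaga
XBP1, chr22:28800600-28800624, minus strand: tggCCAATcgcggagggCCACGacc
HYOU1, chr11:119057271-119057287, plus strand: ctcATTGGaCCACGtcc
HYOU1, chr11:119057377-119057393, plus strand: gggATTGGaCCACGtca
HERPUD1, chr16:56932022-56932038, plus strand: ccgATTGGgCCACGttg
SDF2L1, chr22:21642111-21642127, minus strand: ttgATTGGtCCACGctt

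Among the 7 genes with ERSE, HSPA5 and CALR rose at both times and CRELD2 at 48 hours, whereas XBP1 and PDIA6 fell at both times and HSP90B1 and CANX at 24 hours. The rises of CALR and CRELD2 depended on the scaling. With equal totals CALR was at -0.00511 at 24 hours and CRELD2 at 0.0693 at 48 hours (adjusted p = 0.92 and 0.56). With quantile normalization CALR was at -0.0543 and -0.0538 (adjusted p = 0.27 and 0.28), while CRELD2 rose at both times. HSP90B1 and CANX fell at both times under both scalings. The widest contrast was between HSPA5 and XBP1, and the 250 bases before each start are printed here on the minus strand of GRCh38.p14, with the motif in capitals.
HSPA5, chr9:125241344-125241593: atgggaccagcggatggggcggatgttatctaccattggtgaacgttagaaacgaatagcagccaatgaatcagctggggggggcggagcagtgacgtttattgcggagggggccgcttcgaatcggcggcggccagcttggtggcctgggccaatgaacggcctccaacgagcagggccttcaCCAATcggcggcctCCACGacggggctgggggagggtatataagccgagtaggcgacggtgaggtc
XBP1, chr22:28800570-28800819: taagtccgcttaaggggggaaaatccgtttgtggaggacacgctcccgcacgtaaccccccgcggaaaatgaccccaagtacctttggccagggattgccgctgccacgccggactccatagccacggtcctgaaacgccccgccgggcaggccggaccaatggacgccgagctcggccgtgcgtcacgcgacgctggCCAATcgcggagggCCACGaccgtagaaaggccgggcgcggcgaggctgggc
The motif begins 66 bases before the RefSeq start of HSPA5 and 52 bases before that of XBP1, which differ from the GENCODE 44 starts given above. A match is a description of the sequence, and binding was not measured.

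The ATF4 arm holds regulators, enzymes of serine and one-carbon metabolism, genes of amino acid supply and secreted or surface proteins. Among its 6 regulators 3 rose and 2 fell at 24 hours, and none rose and 5 fell at 48 hours. The share that fell at 24 hours, 33.3%, was near that of all genes (34.6%), 50% rose (33.9% of all genes), and at 48 hours 83.3% fell (33.9% of all genes). TRIB3, a pseudokinase that binds ATF4 and dampens its activity, had the largest decrease of the arm (ENSG00000101255, plus strand, chr20:362835-397559). It read 928, 1080.5 and 1245 in DMSO and 524, 373 and 378 with AZD5153 at 24 hours, then 1276, 1317 and 1263 against 395, 375 and 406 at 48 hours. Every treated library was below every vehicle library. TRIB3 fell by 1.36 (SE 0.12, adjusted p = 6e-08) and 1.71 (SE 0.12, adjusted p = 3.7e-09).

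CEBPG, the CCAAT enhancer binding protein that pairs with ATF4, fell as well (ENSG00000153879, plus strand, chr19:33373685-33382686). Vehicle libraries had 682, 692 and 678 and then 511, 531 and 539.9, and treated libraries 304, 350.2 and 299.9 and then 306, 294 and 254. The groups were far apart. CEBPG fell to 0.465 of its DMSO level (log2 difference -1.10 ± 0.09, adjusted p = 2.3e-08) and to 0.54 (-0.89 ± 0.09, adjusted p = 3e-07). CHAC1, which degrades glutathione, was low, between 13.5 and 36.3 normalized counts, and its groups overlapped (0.19 ± 0.33 and -0.27 ± 0.33, adjusted p = 0.62 and 0.47).

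PHGDH catalyses the first step of serine synthesis from glycolysis (ENSG00000092621, plus strand, chr1:119648411-119744218). It read 2159.6, 2491 and 2810.1 in DMSO and 1693, 1684 and 1602 with AZD5153 at 24 hours, and 2178, 2442 and 2345 against 1020.3, 984 and 979 at 48 hours. Treated libraries were lower at both times and lowest at 48 hours. PHGDH fell by 0.58 (SE 0.08, adjusted p = 7.8e-06) and 1.22 (SE 0.08, adjusted p = 1.2e-09), and the effects differed (-0.65 ± 0.11, adjusted p = 0.00061).

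SHMT2, the mitochondrial enzyme that passes a carbon unit from serine to folate, fell by 0.50 (SE 0.05, adjusted p = 2.8e-07) and 0.61 (SE 0.05, adjusted p = 2.4e-08). MTHFD2, the next mitochondrial enzyme of that path, passed at neither time (0.10 ± 0.07 and 0.08 ± 0.07, adjusted p = 0.2 and 0.33). PSPH, the phosphatase that completes serine synthesis, fell by 0.14 at 24 hours (SE 0.06, adjusted p = 0.042) and was at 0.05 ± 0.06 at 48 hours (adjusted p = 0.51). That decrease was lost without any of 6 single libraries (replicates 2 and 3 of DMSO and of AZD5153 at 24 hours, replicate 2 of DMSO and replicate 3 of AZD5153 at 48 hours), with values from -0.15 to -0.13, and the PSPH pseudogene PSPHP1 had a mean of 529 normalized counts against 1185 for PSPH, so that reads may be divided between them. The value at 24 hours was -0.265 with equal totals (adjusted p = 0.00098) and -0.129 with quantile normalization (adjusted p = 0.067). The middle enzyme of serine synthesis, PSAT1, reversed and is described further on.

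Of the 4 genes of amino acid supply, 3 rose and 1 fell at 24 hours, and 0 rose and 1 fell at 48 hours, where 33.9% and 34.6% and then 33.1% and 33.9% of all genes did. SLC7A5, the light chain of the transporter of large neutral amino acids, rose (ENSG00000103257, minus strand, chr16:87830023-87869507). It read 2459, 2944 and 3183 in DMSO and 5213, 5385 and 5078 with AZD5153 at 24 hours, but 1909, 1891 and 1814 against 1946, 2019 and 2036 at 48 hours. The groups were far apart at 24 hours and nearly met at 48 hours. SLC7A5 rose 1.84-fold at 24 hours (0.88 ± 0.07, adjusted p = 2.7e-08), its value at 48 hours was 0.10 ± 0.07 (adjusted p = 0.26), and the effects differed (-0.78 ± 0.10, adjusted p = 7.4e-05).

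SLC3A2 encodes CD98, the heavy chain that carries SLC7A5 to the membrane (ENSG00000168003, plus strand, chr11:62856004-62888880). Its libraries had 1923, 2422 and 2598 against 3539.7, 3582 and 3061 at 24 hours, and 2011, 2111 and 2079 against 2196, 2101 and 2041 at 48 hours. As with its partner, the groups were apart at 24 hours. At 48 hours those of SLC3A2 overlapped, whereas those of SLC7A5 did not. SLC3A2 rose by 0.56 ± 0.09 at 24 hours (adjusted p = 4.4e-05) and was at 0.03 ± 0.09 at 48 hours (adjusted p = 0.77), with a difference of -0.53 ± 0.13 (adjusted p = 0.0068).

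SLC7A1, a transporter of cationic amino acids, fell at both times (ENSG00000139514, minus strand, chr13:29509414-29595688). It read 2970.0, 3119 and 3008 in DMSO and 1379.7, 1500.0 and 1476 with AZD5153 at 24 hours, then 2228, 2214 and 2179 against 1085, 1121 and 1194 at 48 hours. There was no overlap, and the vehicle level was lower at 48 hours. SLC7A1 fell to 0.479 of its DMSO level (-1.06 ± 0.05, adjusted p = 8.9e-11) and to 0.513 (-0.96 ± 0.05, adjusted p = 2.9e-10).

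ASNS, the asparagine synthetase that is a classical ATF4 target, was scarce in every library (ENSG00000070669, minus strand, chr7:97851677-97872542). It read 14.7, 22.1 and 13.4 in DMSO and 28.2, 39.9 and 44.1 with AZD5153 at 24 hours, and 22.5, 32.8 and 22.7 against 31.0, 35.9 and 35.9 at 48 hours. The groups were apart at 24 hours and overlapped at 48 hours. ASNS rose by 1.12 ± 0.29 at 24 hours (adjusted p = 0.0027) and was at 0.40 ± 0.29 at 48 hours (adjusted p = 0.23), or 0.758 under quantile normalization (adjusted p = 0.03). Its effects did not differ past the threshold (-0.72 ± 0.41, adjusted p = 0.22), and an unnamed gene on the same strand, ENSG00000284707, overlaps it with a mean of 22.8 normalized counts against 28.6 for ASNS.

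Both secreted or surface members fell at 24 hours, as did 34.6% of all genes. STC2, a secreted glycoprotein, fell by 0.27 (SE 0.07, adjusted p = 0.0034) and by 0.83 at 48 hours (SE 0.07, adjusted p = 3.9e-08), with a difference between the effects of -0.56 ± 0.10 (adjusted p = 0.00088). VLDLR, a lipoprotein receptor, lay between 24.6 and 83.4 normalized counts, fell by 0.95 at 24 hours (SE 0.27, adjusted p = 0.0062) and was at -0.46 ± 0.27 at 48 hours (adjusted p = 0.15).

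CARE was found in 6 of the 37 promoter windows (16.2%), against 4.46% of all genes with a window, and 5 of the 6 belong to the ATF4 arm. They are shown because both directions of change occur among them. Fixed letters of the motif are in capitals.
ASNS, chr7:97872466-97872479, minus strand: gcaTGATGaAActt
SLC3A2, chr11:62881733-62881746, minus strand: agcTGATGtAAgga
SLC7A1, chr13:29595671-29595684, minus strand: tgcTGATGaAAcct
CEBPG, chr19:33374068-33374081, plus strand: gtcTGATGcAAcct
CHAC1, chr15:40953259-40953272, minus strand: gagTGATGcAAcgg
HERPUD1, chr16:56931963-56931976, minus strand: ggcTGATGcAAccc
ASNS and SLC3A2 rose at 24 hours, SLC7A1 and CEBPG fell at both times, CHAC1 passed at neither time and HERPUD1 rose and then fell. HERPUD1 holds CARE and ERSE-II at separate places of its window.

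**Figure D3:**
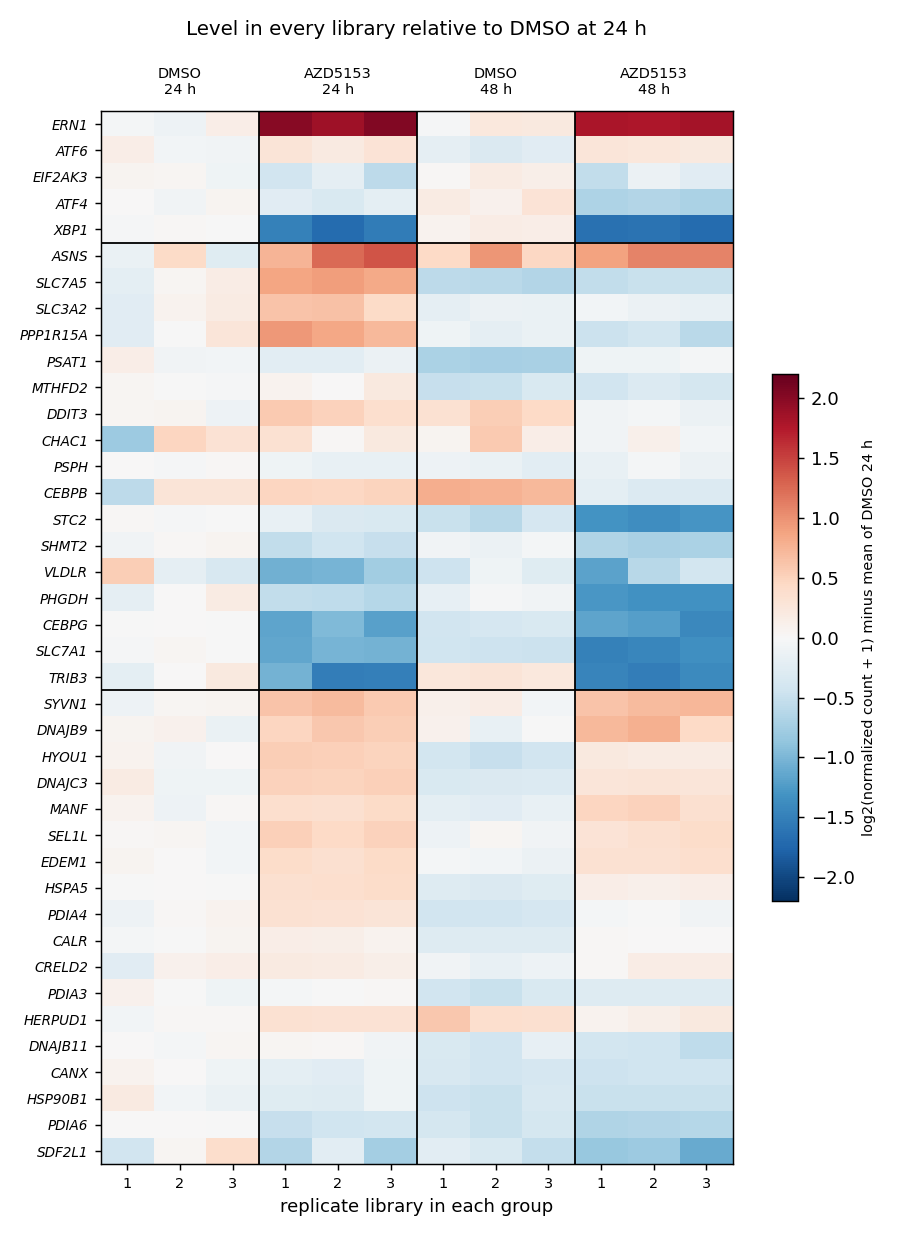
Log2(normalized count + 1) of the 40 genes (rows) in the 12 libraries (columns), each relative to the mean of the 3 DMSO libraries at 24 hours, red above and blue below. Horizontal lines separate sensors and factors, the ATF4 arm and the ATF6/XBP1 arm. Most of the ATF6/XBP1 arm is blue in DMSO at 48 hours, and SLC7A5, SLC3A2 and PPP1R15A are red in AZD5153 at 24 hours and not at 48 hours.

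The AZD5153 effect at 48 hours minus that at 24 hours was past the threshold in 13 members, 4 with a higher and 9 with a lower effect at 48 hours, against 14.4% and 10.1% of all genes tested. In the ATF4 arm 7 of 17 effects were lower and 1 higher, and in the ATF6/XBP1 arm 1 was lower and 3 higher. The 3 higher effects of MANF (0.28 ± 0.09), CALR (0.18 ± 0.06) and PDIA6 (0.23 ± 0.07) had adjusted p-values of 0.034, 0.03 and 0.022. These calls were lost without any of 6, 8 and 3 single libraries. The values were then 0.250 to 0.278 for MANF, 0.159 to 0.186 for CALR and 0.193 to 0.218 for PDIA6. Scaling to equal totals and quantile normalization each left 1 higher effect, that of PSAT1, beside 9 and 10 lower ones.

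DDIT3, PPP1R15A, CEBPB and HERPUD1 rose at 24 hours and fell at 48 hours, and PSAT1 did the reverse. DDIT3 encodes CHOP, a transcription factor of prolonged ER stress (ENSG00000175197, minus strand, chr12:57516588-57521737). It read 180.3, 183 and 162 in DMSO and 260.1, 248 and 225 with AZD5153 at 24 hours, and 219.8, 256 and 238 against 166, 171 and 159 at 48 hours. Treated libraries were all higher at 24 hours and all lower at 48 hours. DDIT3 rose by 0.48 ± 0.11 (adjusted p = 0.0012) and then fell by 0.52 (SE 0.11, adjusted p = 0.00057), while DMSO rose by 0.44 ± 0.11 between the times (adjusted p = 0.0055). DDIT3 overlaps MARS1 and MBD6 on the other strand, with means of 4028 and 1674 normalized counts against 206, and the strand setting of the counting is not given in the sources used here, so that reads of the shared stretches cannot be assigned with certainty. Under quantile normalization the value at 48 hours was -0.25 (adjusted p = 0.06).

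PPP1R15A encodes GADD34, which brings a phosphatase to eIF2α and restores translation (ENSG00000087074, plus strand, chr19:48872212-48876059). Its values were 884, 1056 and 1264 in DMSO and 2046, 1915 and 1731 with AZD5153 at 24 hours, then 985, 925 and 949 against 759, 798 and 703 at 48 hours. The order of the groups turned without overlap at either time. PPP1R15A rose 1.79-fold at 24 hours (0.84 ± 0.10, adjusted p = 2.5e-06) and fell by 0.34 at 48 hours (SE 0.10, adjusted p = 0.0085), with a difference of -1.18 ± 0.15 (adjusted p = 4e-05). With equal totals the value at 48 hours was -0.512. DMSO was at -0.15 ± 0.10 between the times (adjusted p = 0.28), while the treated libraries went from 1731 or more to 798 or less.

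CEBPB, a CCAAT enhancer binding protein of stress and inflammation, turned as well (ENSG00000172216, plus strand, chr20:50190830-50192668). It read 1156, 2096 and 2077 in DMSO and 2379, 2351 and 2394 with AZD5153 at 24 hours, and 2998, 2914 and 2801 against 1474, 1395 and 1391 at 48 hours. The groups did not overlap, and replicate 1 of DMSO at 24 hours was far below the other vehicle libraries. CEBPB rose by 0.47 ± 0.15 at 24 hours (adjusted p = 0.013), or by 0.19 without that library (adjusted p = 0.0024), and fell by 1.03 at 48 hours (SE 0.15, adjusted p = 1.9e-05). DMSO rose by 0.76 ± 0.15 between the times (adjusted p = 0.0012), or by 0.48 without that library. Scaling to equal totals took the rise at 24 hours to 0.347 (adjusted p = 0.051).

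HERPUD1, an ER membrane protein of the degradation complex, turned by less (ENSG00000051108, plus strand, chr16:56932142-56944864). Vehicle libraries had 401, 426 and 423 at 24 hours and 628, 539 and 530.2 at 48 hours, and treated libraries 524, 517 and 520.2 and then 441, 454 and 483. Treated libraries were above vehicle at 24 hours and below it at 48 hours. HERPUD1 rose by 0.32 ± 0.08 (adjusted p = 0.0026) and fell by 0.30 (SE 0.08, adjusted p = 0.0045), and DMSO rose by 0.44 ± 0.08 between the times (adjusted p = 0.00068). The sizes depended on the scaling, with 0.197 and -0.468 for equal totals (adjusted p = 0.042 and 9.3e-05) and -0.195 at 48 hours for quantile normalization (adjusted p = 0.049).

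PSAT1, the transaminase of serine synthesis, went from lower to higher (ENSG00000135069, plus strand, chr9:78297125-78330093). It read 1877, 1622 and 1628 in DMSO and 1460.1, 1454 and 1562 with AZD5153 at 24 hours, and 1057, 1033 and 1035 against 1601, 1598 and 1647 at 48 hours. Treated libraries lay between 1454 and 1647 at both times, while the vehicle libraries were high at 24 hours and low at 48 hours. PSAT1 fell by 0.19 at 24 hours (SE 0.06, adjusted p = 0.013), or was at -0.12 without replicate 1 of DMSO (adjusted p = 0.057), and rose by 0.63 ± 0.06 at 48 hours (adjusted p = 2.2e-07). With equal totals the value at 24 hours was -0.316 (adjusted p = 0.00041). DMSO fell by 0.71 between the times (adjusted p = 8.6e-07).

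**Figure D4:**
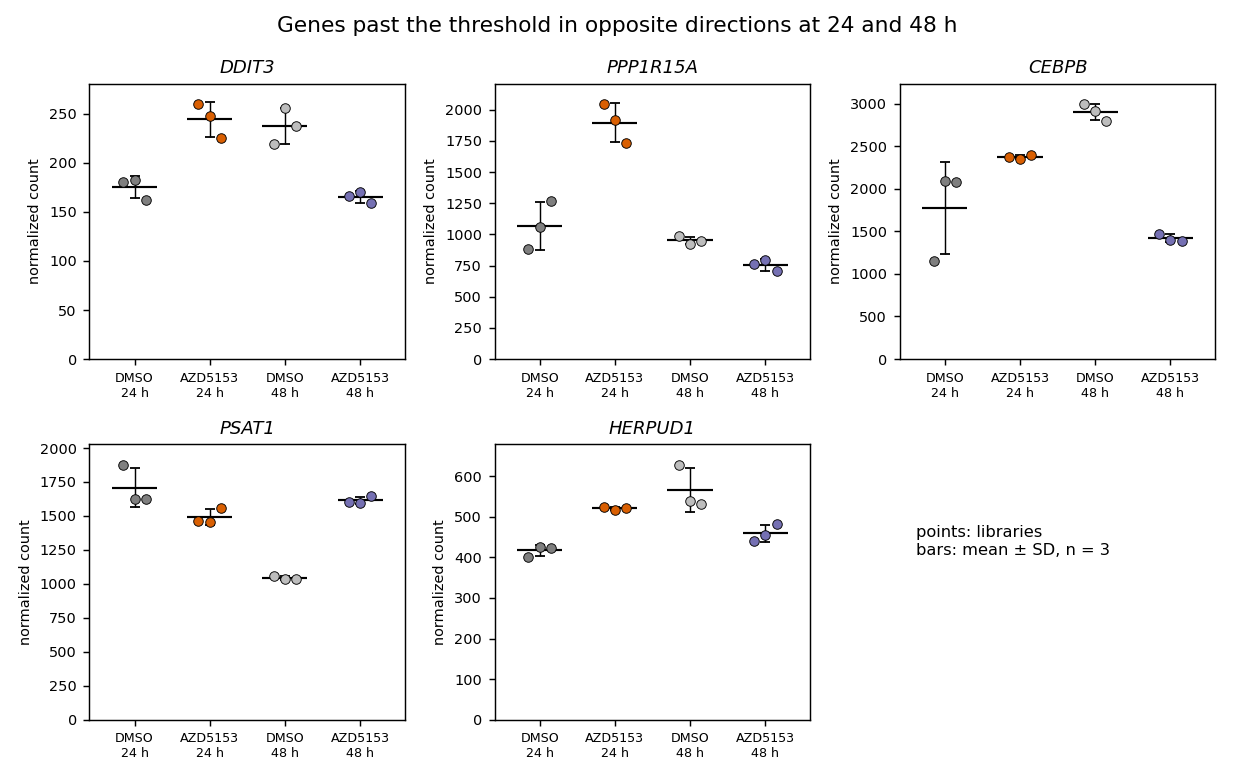
Normalized counts of DDIT3, PPP1R15A, CEBPB, PSAT1 and HERPUD1 in the 12 libraries, by group. Points are libraries and bars give the mean and SD of 3 libraries. DDIT3, PPP1R15A, CEBPB and HERPUD1 are higher with AZD5153 at 24 hours and lower at 48 hours, PSAT1 the reverse, and 1 DMSO library at 24 hours is low for CEBPB at 1156.

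The vehicle cells themselves moved between 24 and 48 hours, which is the background of the 48-hour effects. In DMSO 4 members rose and 19 fell from 24 to 48 hours, against 16.4% and 19.3% of all genes tested, or 4 and 24 without replicate 1 of DMSO at 24 hours. In the ATF6/XBP1 arm 11 of 18 fell and 1 rose, with a median log2 difference of -0.30, and all 5 lectin and disulfide isomerase genes were among those that fell. HSP90B1 fell by 0.43 (adjusted p = 0.00033), HYOU1 fell by 0.45 (adjusted p = 9.2e-06) and HSPA5 fell by 0.29 (adjusted p = 2.8e-05). The 4 that rose were ATF4, DDIT3, CEBPB and HERPUD1. ATF4 rose by 0.19 ± 0.06 (adjusted p = 0.019), a call that was lost without replicate 2 of DMSO at 24 hours or replicate 3 of DMSO at 48 hours. Among those that fell, PSPH had an adjusted p of 0.05 that was lost without any one of the 12 libraries. MANF was at -0.215, a call lost without replicate 2 of DMSO at 48 hours (-0.193, adjusted p = 0.064). It was also lost with equal totals (-0.162, adjusted p = 0.065) and with quantile normalization (-0.164, adjusted p = 0.069). These DMSO differences share their vehicle libraries with the AZD5153 effects, so that the comparisons are not independent.

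The mean level of each arm was taken in every library as the mean of log2(normalized count + 1) over its genes, a description without a test because the genes are not replicates. The ATF6/XBP1 arm was at 11.19 ± 0.0061 (SD, n = 3) in DMSO and 11.38 ± 0.01 with AZD5153 at 24 hours, and at 10.97 ± 0.03 and 11.20 ± 0.02 at 48 hours. Treated libraries were above vehicle at both times, and the treated level at 48 hours was about that of vehicle at 24 hours. Treatment minus vehicle was 0.187 and 0.227 for this arm, but 0.0636 and 0.0555 after scaling to equal totals. The ATF4 arm was at 9.52 ± 0.10 and 9.43 ± 0.01 at 24 hours and at 9.42 ± 0.05 and 8.97 ± 0.03 at 48 hours. At 24 hours its groups overlapped, since replicate 1 of DMSO was at 9.40, and at 48 hours every treated library was lower. The ATF4 arm minus the ATF6/XBP1 arm was -1.68 ± 0.10 in DMSO and -1.95 ± 0.02 with AZD5153 at 24 hours, and -1.55 ± 0.07 against -2.22 ± 0.03 at 48 hours, without overlap at either time. Treatment minus vehicle was -0.276 and -0.672 for this difference, and -0.206 and -0.554 under quantile normalization. A factor common to a library cancels in it.

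**Figure D5:**
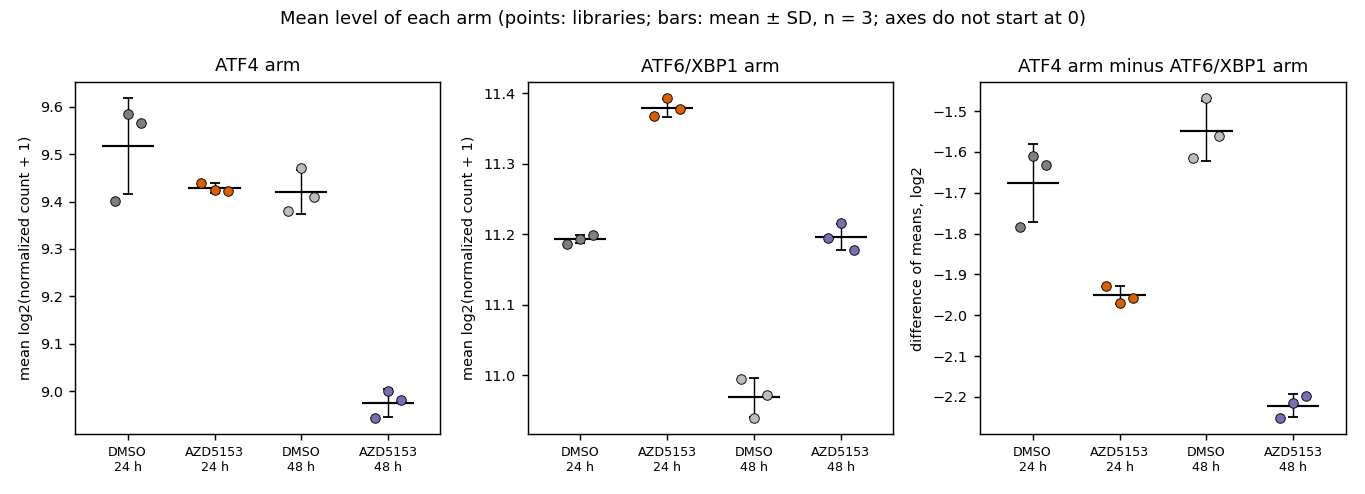
Mean log2(normalized count + 1) over the 17 ATF4 arm genes and the 18 ATF6/XBP1 arm genes, and the difference of the arms, in the 12 libraries by group. Points are libraries and bars give the mean and SD of 3 libraries, and the axes do not start at 0. The ATF6/XBP1 arm is higher with AZD5153 at both times, the ATF4 arm is lower at 48 hours, and the difference of the arms is lower in every treated library.

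Levels between genes were compared per kilobase of the canonical transcript (GENCODE 44). In DMSO at 24 hours CALR had 7312 ± 283 normalized counts per kilobase and HSP90B1 7216 ± 924, which did not differ beyond their spread, followed by HSPA5 at 4402 ± 26.6 and CANX at 3324 ± 190.2. With AZD5153 at 24 hours CALR stood at 7932 ± 202, HSP90B1 at 6199 ± 462 and HSPA5 at 5729 ± 103. Among the factors ATF4 had 1894 ± 84.5 per kilobase, XBP1 415 ± 8.35, ATF6 288 ± 26.1, EIF2AK3 94.4 ± 5.56 and ERN1 27.8 ± 2.51 in DMSO at 24 hours. With treatment the order was another, with ERN1 at 109 ± 6.72 above EIF2AK3 at 71.9 ± 9.36 and ATF6 at 345 ± 12.8 above XBP1 at 139.7 ± 9.82 at 24 hours. Of the 3 lowest members in DMSO at 24 hours, CHAC1 was at 17.1 ± 7.22 and VLDLR at 6.43 ± 2.29, and ASNS lay between them, apart from VLDLR by less than their spread. With AZD5153 at 24 hours ASNS had 15.7 ± 3.46 per kilobase and VLDLR 3.17 ± 0.367.

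Other genes of these pathways were counted from lists written for the comparison. Of 35 further ATF4 targets 34 were tested (all but FGF21), of which 9 rose (26.5%, against 33.9% of all genes) and 16 fell (47.1%, against 34.6%) at 24 hours. At 48 hours 11 rose (32.4%, against 33.1%) and 14 fell (41.2%, against 33.9%). By the mean over both times the largest decreases were those of NUPR1, a stress-induced chromatin protein (-2.78 ± 0.48 and -4.26 ± 0.48, adjusted p = 9.5e-05 and 9.7e-07), VEGFA, the angiogenic growth factor (-2.50 ± 0.21 and -3.43 ± 0.21, adjusted p = 2.6e-08 and 5.9e-10), and CBS, which makes cystathionine (-2.16 ± 0.27 and -3.73 ± 0.27, adjusted p = 3.3e-06 and 5.7e-09). CTH, which cleaves cystathionine to cysteine, rose by 1.71 ± 0.16 and 0.99 ± 0.16 (adjusted p = 8.7e-08 and 3.8e-05), and SESN2, a leucine sensor that restrains mTORC1, rose by 1.32 ± 0.10 and 0.97 ± 0.10 (adjusted p = 1.3e-08 and 5.5e-07). NUPR1 had a mean of 23.3 ± 6.68 normalized counts in DMSO and 2.63 ± 1.39 with AZD5153 at 24 hours, so that the + 1 understates its decrease. The neighbouring enzymes CBS and CTH of the transsulfuration pathway thus changed in opposite directions. ATF3, a stress-induced transcription factor, rose by 1.80 ± 0.21 at 24 hours (adjusted p = 1.7e-06) and was at 0.28 ± 0.21 at 48 hours (adjusted p = 0.27).

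Another list held 13 genes around eIF2 signalling, NFE2L2 among them. Of these, 7 rose and 4 fell at 24 hours and 8 rose and 2 fell at 48 hours. That is 53.8% and 30.8% and then 61.5% and 15.4%, against the same shares of all genes. EIF2AK2, the RNA-activated kinase PKR, fell by 1.39 (SE 0.07, adjusted p = 1.4e-10) and 0.93 (SE 0.07, adjusted p = 1.9e-08), and EIF2AK4, the amino acid sensor GCN2, fell by 0.40 (SE 0.06, adjusted p = 2e-05) and 0.17 (SE 0.06, adjusted p = 0.018). NFE2L2, the oxidative stress factor NRF2, fell by 0.45 at 24 hours (SE 0.08, adjusted p = 0.00017) and was at -0.17 ± 0.08 at 48 hours (adjusted p = 0.083). On the other side EIF2B3 and EIF2B4, subunits of the exchange factor of eIF2, rose by 0.91 ± 0.09 and 0.63 ± 0.08 at 24 hours (adjusted p = 1.6e-07 and 3.2e-06) and by 1.23 ± 0.09 and 0.50 ± 0.08 at 48 hours (adjusted p = 4.4e-09 and 3.5e-05). PPP1R15B, the constitutive partner of the eIF2α phosphatase, rose by 0.63 ± 0.05 and 0.71 ± 0.05 (adjusted p = 1.3e-08 and 2.8e-09).

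Of 63 further ER genes 60 were tested (all but DERL3, FKBP2 and ERN2), of which 29 rose (48.3%, against 33.9% of all genes) and 21 fell (35%, against 34.6%) at 24 hours, with a median of 0.13. At 48 hours 32 rose (53.3%, against 33.1%) and 11 fell (18.3%, against 33.9%), with a median of 0.18. Their effects were higher at 48 than at 24 hours in 17 (28.3%, against 14.4% of all genes) and lower in 1 (1.67%, against 10.1%). ERO1B, an oxidase that recharges disulfide isomerases, rose by 1.73 ± 0.16 and 1.32 ± 0.16 (adjusted p = 1.1e-07 and 2.4e-06). WFS1, the ER membrane protein wolframin, rose by 1.06 ± 0.06 and 1.21 ± 0.06 (adjusted p = 5.3e-10 and 1.2e-10), and OS9, a lectin of ER-associated degradation, rose by 1.02 ± 0.06 and 1.00 ± 0.06 (adjusted p = 3.5e-10 and 4.5e-10). KDELR3, a receptor that returns ER proteins from the Golgi, fell by 2.38 (SE 0.18, adjusted p = 1.1e-08) and 1.96 (SE 0.18, adjusted p = 1.2e-07). CREB3L2 and ATF6B, membrane-bound transcription factors related to ATF6, fell by 1.16 and 0.70 at 24 hours (adjusted p = 3.8e-11 and 1.1e-06) and by 0.69 and 0.50 at 48 hours (adjusted p = 1.7e-08 and 3.7e-05). Thus ATF6 and its paralogue ATF6B changed in opposite directions at both times, although the rise of ATF6 at 24 hours was not past the threshold with equal totals (0.137, adjusted p = 0.069).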

How the data were processed

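RNA was extracted from SF8628 cells, and paired-end reads of 150 bp were sequenced. Per the labels and the methods of the study, the authors used STAR with hg38 for alignment, HTSeq-count for gene counts and DESeq2 for scaling. Versions, annotation and strand setting are not given in the sources used here. The deposited values are a signal, gene counts divided by 1 size factor per library, and 100% were whole reads times that factor within a tolerance of 0.001. The deposited log2 fold changes with their standard errors, the deposited Wald statistic (a score) and the deposited p-values of the authors' own comparison were not used. The H3K27ac libraries were not analysed here.

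Genes with a mean of at least 10 were tested on log2(normalized count + 1), a scale that understates changes of low genes, with limma 3.58.1 in R 4.3.3 (trend, Benjamini-Hochberg over 15599 genes, two-sided, 8 residual degrees of freedom). All 4 groups entered 1 fit. Normalized counts had been foreseen as the likely unit, with edgeR for raw counts. Alternatives were pseudocounts of 0.5 and 10, no minimum mean and one of 100, scaling to equal totals, to 7 stably expressed genes and by quantiles, a replicate block, edgeR 4.0.16 and DESeq2 1.42.0 on the recovered reads, and leaving out each library. The steps were tested on simulated data. Fold values are 2 to the power of the log2 difference. Positions and lengths are those of GENCODE 44.

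The members, the lists and the tests were chosen with earlier results of these data known. All 40 genes are named. Values in every library are given for the 5 sensors and factors, for the 4 largest increases and 4 largest decreases over both times in each arm, and for genes called in opposite directions, and for HSPA5, added after its values were seen. From each further list the 3 largest increases and decreases of the mean over both times are named.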

Additional observations from a re-analysis of the deposited data

Results flagged for a closer look

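The AZD5153 effect differed between 48 and 24 hours in 13 of the 40 genes (interaction in limma, Benjamini-Hochberg over all genes tested). The difference of the log2 effects, 48 hours minus 24 hours, was -1.5 for CEBPB, -1.18 for PPP1R15A, -0.998 for DDIT3, -0.78 for SLC7A5, -0.646 for PHGDH, -0.616 for HERPUD1, -0.592 for ATF4, -0.563 for STC2 and -0.529 for SLC3A2. It was 0.825 for PSAT1, 0.28 for MANF, 0.227 for PDIA6 and 0.18 for CALR. CEBPB rests in part on replicate 1 of DMSO at 24 hours, and the values of MANF, PDIA6 and CALR were not past the threshold after scaling to equal totals or quantile normalization.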

How the results depend on the processing

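Under the alternatives 116 effects of the 40 genes were followed. They are every AZD5153 effect at 24 and at 48 hours, with the between-time and DMSO differences that passed in the main fit. Of 2546 recomputed values, 2406 kept their direction and their side of the threshold. Another 109 fell below it, 8 newly passed it and 23 changed sign. New calls among the other between-time and DMSO differences are not in this tally. Without replicate 1 of DMSO at 24 hours, for example, 24 members fell in DMSO, against 19. Scaling to equal totals gave -0.126 for PSPH, -0.0754 for SLC7A5, -0.14 for SLC3A2, -0.042 for PDIA3 and -0.0951 for MTHFD2 at 48 hours, and -0.0219 for MTHFD2, -0.123 for DNAJB11 and -0.00511 for CALR at 24 hours. Quantile normalization gave 0.0674 for CHAC1, -0.0137 for PSPH, -0.0114 for SLC7A5, -0.0741 for SLC3A2, -0.0538 for CALR and -0.0379 for PDIA3 at 48 hours and -0.0543 for CALR at 24 hours. Scaling to stable genes gave -0.0464 for DNAJB11 and edgeR 0.0122 for PDIA3 at 24 hours. Without 1 library, the values at 24 hours whose sign depended on 1 library ranged from -0.207 to 0.43 for CHAC1, from -0.0501 to 0.0436 for PDIA3 and from -0.0234 to 0.0376 for DNAJB11. Members with a higher effect at 48 than at 24 hours numbered 4, but 1 without a minimum mean, with equal totals or with quantile normalization, 2 with edgeR and between 1 and 5 without 1 library, with 9 to 11 lower. They numbered 6 after scaling to stable genes, within 1.5 times of the count. Of the single libraries, replicates 1 and 2 of DMSO at 48 hours, replicates 1 and 2 of AZD5153 at 24 hours and each replicate of AZD5153 at 48 hours brought that count to 2 or 1. The cause was not tested.

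The treatment difference in the mean level of the ATF6/XBP1 arm was 0.187 at 24 and 0.227 at 48 hours, against 0.0636 and 0.0555 with equal totals, 0.156 and 0.149 with quantile normalization and 0.14 and 0.253 with stable genes. That of the ATF4 arm was -0.089 and -0.446, against -0.211 and -0.616 with equal totals and -0.0504 and -0.405 with quantile normalization. Without 1 library it was between -0.147 and -0.0553 at 24 hours. The difference of the arms, -0.276 and -0.672, became -0.206 and -0.554 with quantile normalization. Libraries with the same replicate number did not deviate together (correlations between -0.151 and 0.0363 over 18 pairs, none above 0.1). The deviations were taken from means of 3 libraries and offset each other within a group, so that a pairing by number is not excluded. With the replicate block 19 members rose and 15 fell at 24 hours, 13 and 15 at 48 hours, 2 effects were higher and 9 lower at 48 hours, and 4 rose and 18 fell in DMSO. Low counts limit ASNS, CHAC1 and VLDLR.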
